A study of Mus musculus with 48 samples.

Results

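The genes described here are those whose response to stretching depended on the stage of the muscle cells. For each gene, the log2 fold change of stretched against non-stretched cells in myoblasts was subtracted from the same value in differentiated cells, separately at each time. This difference is the interaction of stage and stretch. Genes were called stage-dependent when it reached 0.58 on the log2 scale in either direction and its p-value, adjusted over all genes by Benjamini and Hochberg, was under 0.05. Among 47480 gene symbols, 17044 had enough counts to be tested, and 153 of them were called at one or more times. All 48 libraries entered the fit. A positive difference means that the response was higher in differentiated cells, and a negative one that it was lower, whatever the direction of each response.

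The cells were C2C12, a mouse cell line whose myoblasts leave the cell cycle on differentiation and fuse to multinucleated myotubes. Undifferentiated myoblasts, and cells that had been left to differentiate for several days, were grown on flexible plates coated with collagen. The Flexcell device deformed the plates in repeated cycles over 1 h, 3 h, or 6 h, and control cells of each stage and time stood on plates of this kind without stretching. This gave 12 groups of 4 libraries with no genotype or drug treatment, 24 libraries of each stage. As a model, it is a single line in culture, and both stages share its background. By the study's methods, myoblasts were kept in fetal bovine serum. Differentiated cells were plated at a higher density and differentiated in horse serum at a lower concentration. Serum, density and time in culture changed with the stage and cannot be told apart from it.

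Stretch is sensed at adhesions, ion channels and the cytoskeleton. Within minutes, kinase cascades switch on immediate early genes such as those of the AP-1 transcription factors, and the coactivators YAP and TAZ switch on matricellular genes such as Cyr61. Slower programs respond to the state of membranes. When cholesterol in the endoplasmic reticulum is low, SREBP2 activates the genes of sterol synthesis, and when unfolded proteins accumulate there, ATF6, XBP1 and PERK activate chaperones and the machinery that degrades misfolded proteins. Myoblasts divide and hold little contractile machinery, whereas cells that differentiate leave the cell cycle and assemble sarcomeres, so both stages receive the same deformation with a different cytoskeleton.

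Promoters are shown for 4 stage-dependent genes, one or more from each time point, because each holds a known response element. That of Errfi1 came from a search of the genes called at 1 h. The sequences are RefSeq entries on GRCm38.p6, 250 bases before to 50 bases after the start site, 5′ to 3′ in the direction of the gene, with the motif in capitals. Hmgcs1 (chr13:119690101-119690400, plus strand) encodes an enzyme of sterol synthesis, and the motif is the sterol regulatory element TCACNCCAC. Syvn1 (chr19:6046326-6046625, plus strand) encodes a ubiquitin ligase of the endoplasmic reticulum, and the motif is the stress response element, CCAAT and CCACG with 9 bases between them. Txnip (chr3:96557707-96558006, plus strand) encodes a protein that binds thioredoxin and restrains glucose uptake, and the motif is a pair of carbohydrate response half-sites, CACGNG repeated with 5 bases in between. Errfi1 (chr4:150854820-150855119, plus strand) encodes a feedback inhibitor of the EGF receptor, and the motif is the cyclic AMP response element TGACGTCA.
Hmgcs1: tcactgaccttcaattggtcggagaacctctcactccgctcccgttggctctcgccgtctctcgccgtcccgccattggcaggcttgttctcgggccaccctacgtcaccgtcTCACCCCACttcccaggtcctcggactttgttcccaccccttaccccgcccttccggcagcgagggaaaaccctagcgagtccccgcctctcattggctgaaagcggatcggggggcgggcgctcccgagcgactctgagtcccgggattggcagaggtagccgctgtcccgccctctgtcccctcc
Syvn1: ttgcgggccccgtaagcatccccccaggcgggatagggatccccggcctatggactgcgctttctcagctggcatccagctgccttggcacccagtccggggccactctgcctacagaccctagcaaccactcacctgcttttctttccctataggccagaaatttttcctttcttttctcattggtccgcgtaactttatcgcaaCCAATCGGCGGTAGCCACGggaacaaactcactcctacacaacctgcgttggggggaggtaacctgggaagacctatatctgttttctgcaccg
Txnip: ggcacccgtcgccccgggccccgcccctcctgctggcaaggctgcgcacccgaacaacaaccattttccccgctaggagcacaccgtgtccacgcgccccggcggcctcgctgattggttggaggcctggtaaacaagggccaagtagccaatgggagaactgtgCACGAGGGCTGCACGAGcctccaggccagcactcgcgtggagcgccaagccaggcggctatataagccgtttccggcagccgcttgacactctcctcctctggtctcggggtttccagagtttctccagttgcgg
Errfi1: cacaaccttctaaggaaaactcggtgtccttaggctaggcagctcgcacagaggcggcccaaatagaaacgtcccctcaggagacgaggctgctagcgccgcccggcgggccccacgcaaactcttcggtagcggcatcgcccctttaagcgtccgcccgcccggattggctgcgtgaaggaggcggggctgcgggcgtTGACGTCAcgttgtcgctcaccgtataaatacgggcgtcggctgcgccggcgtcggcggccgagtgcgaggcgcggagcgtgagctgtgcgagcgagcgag
The motifs begin 137, 44, 85 and 51 bases before the start site of Hmgcs1, Syvn1, Txnip and Errfi1. Both strands were searched, and a gene was counted when any of its promoter entries of this length matched. Of 27025 genes with an entry, 1.44% held the sterol element and 0.137% the stress element. The paired half-sites were in 0.0555% (15 genes) and the cyclic AMP element in 2.03%. A match is a description of these letters only. Of the 5 stage-dependent sterol genes, 3 had a promoter entry and 1 held the element. Of the 2 genes of the endoplasmic reticulum, both had an entry and 1 held the element. Of the 12 genes called at 1 h, 9 had an entry and 2, Errfi1 and Btg2, held the cyclic AMP element.

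The libraries held 48447318 to 77080730 counts. The stage labels were checked against 7 muscle genes (Myog, Myh3, Ckm, Actn2, Tnnt3, Mylpf and Tmem8c, which encodes Myomaker) and 6 genes of undifferentiated or dividing cells (Pax7, Myf5, Mki67, Top2a, Ccnb1 and Cdk1). The summed level of the muscle genes was 4.67 to 12.8 CPM (counts relative to library size) in myoblasts and 8840 to 11000 CPM in differentiated cells. Ckm and Actn2 were at 0 in the lowest myoblast library. The sum of the other 6 genes was 1460 to 1810 CPM in myoblasts and still 251 to 632 CPM in differentiated cells, where Pax7 was not lower (median 32.1 CPM, against 27.1 CPM in myoblasts). Myoblasts carried the label codes B27 (replicates 7 and 8) and B31 (replicates 9 and 10), and differentiated cells B25 (7 and 8) and B28 (9 and 10). These codes were taken as experiments, which the labels do not state. The stretched differentiated group at 1 h differed, since it held replicates 4, 7, 8 and 9, and replicate 4 was the only library of experiment B17. No experiment held both stages, so that stage and experiment cannot be told apart, and the p-values measure only the spread between these libraries.

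Stage-dependent genes were few at 1 h and more numerous at 6 h. By edgeR's quasi-likelihood test, 12 of 17044 genes (0.0704%) were called at 1 h. The number was 32 (0.188%) at 3 h and 114 (0.669%) at 6 h. The difference was positive for 10 genes (0.0587%) and negative for 2 (0.0117%) at 1 h, and positive for 26 (0.153%) and negative for 6 (0.0352%) at 3 h. At 6 h the balance was the other way, with 28 (0.164%) positive and 86 (0.505%) negative. The median difference over all genes was 0.0044, -0.0042 and 0.023 at the 3 times. By the adjusted p-value alone, 29 genes (0.17%), 172 (1.01%) and 1020 (5.98%) passed, most of them with differences under 0.58. Positive among these were 26, 111 and 653, and negative were 3, 61 and 367. The negative balance at 6 h was thus one of the genes past the limit of size, and not of all that passed the adjusted p-value. A joint test of the 3 times passed for 801 genes (4.7%), including 101 of the 153 called genes.

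Most genes that responded to stretch were not called as stage-dependent. A gene was called in a stage at the same limits, and 316 (1.85%), 490 (2.87%) and 693 genes (4.07%) were called in one or both stages at the respective times. Of these, 9 (2.85%), 24 (4.9%) and 80 (11.5%) were stage-dependent. For 53, 69 and 91 of them, the 95% interval of the difference lay within 0.58 of 0 on both sides. For the genes that were neither stage-dependent nor bounded in this way, the data gave no call and no such bound. The genes called in both stages numbered 67, 41 and 64, of which 67, 41 and 61 moved in the same direction in both.

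**Figure D1:**
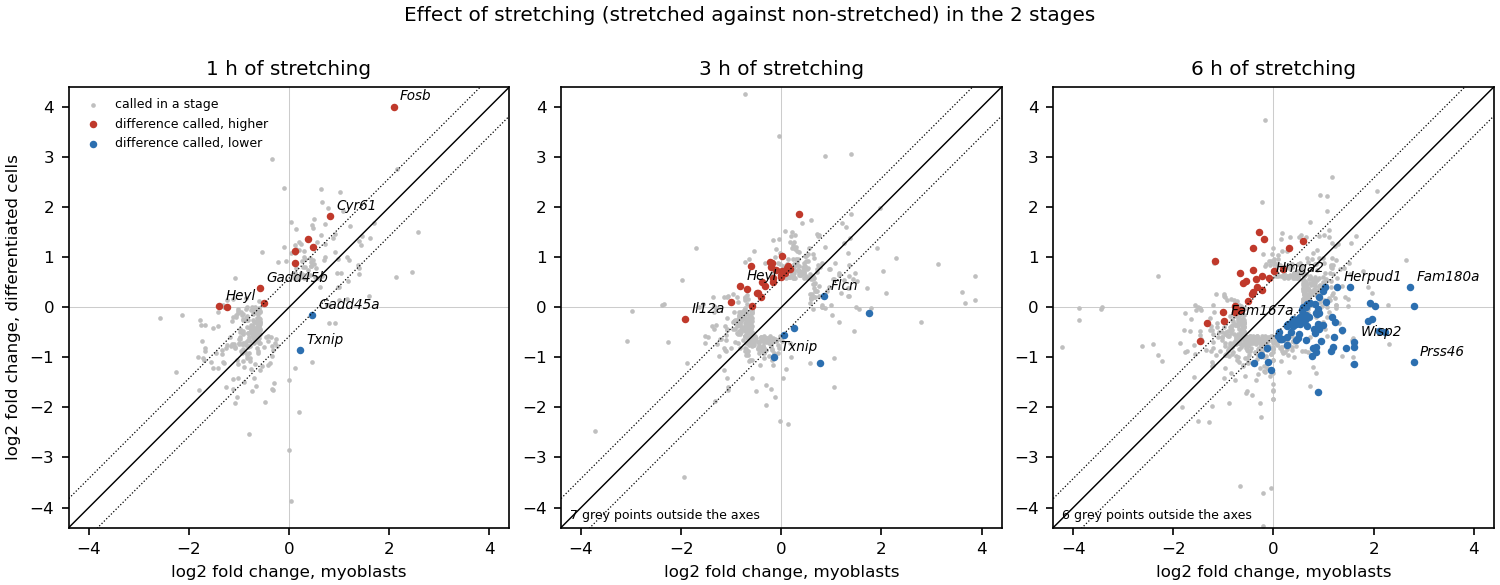
The log2 fold change with stretching in myoblasts (horizontal) and in differentiated cells (vertical) is plotted for genes called in a stage (grey) and for stage-dependent genes (red, higher in differentiated cells; blue, lower), one panel for each time. The solid line marks equal responses, the dotted lines mark a difference of 0.58, a few grey points lie outside the axes at 3 h and 6 h, and the stage-dependent genes number 12, 32 and 114.

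The stage-dependent genes were sorted by the stage in which the response had an adjusted p-value under 0.05. At 1 h, 4 passed in differentiated cells and not in myoblasts, 4 in myoblasts and not in differentiated cells, 3 in the same direction in both and 1, Gadd45b, in opposite directions. At 3 h, these numbers were 21, 7, 1 and 3. At 6 h, they were 34, 51, 8 and 15, and 6 genes passed in neither stage. The response was the larger one in differentiated cells for 7 of 12 genes at 1 h and 22 of 32 at 3 h. At 6 h it was the larger one in myoblasts for 76 of 114. Since the groups were formed from the tested values, these counts are a description.

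Of the genes called at 1 h, Fosb had the largest stage difference. Fosb (chromosome 7, 19302696 to 19310051, minus strand, mm10 as all gene positions here) encodes an AP-1 subunit and is an immediate early gene. In non-stretched differentiated cells it was at 2.17, 1.96, 1.96 and 1.85 CPM, and in stretched ones at 65.9, 21.9, 19 and 21 CPM in the order of replicates 4, 7, 8 and 9. In myoblasts it was at 2.37, 1.99, 1.79 and 2.43 CPM without and at 7.64, 7.89, 11.5 and 9.46 CPM with stretching. The stretched libraries lay above the non-stretched ones in both stages, and those of differentiated cells above those of myoblasts. The log2 fold change was 4.01 in differentiated cells and 2.09 in myoblasts, a difference of 1.91 ± 0.352 (SE, adjusted p = 0.0074).

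Replicate 4 stood apart in Fosb and in other early genes. For Cyr61 (chromosome 3, 145646976 to 145649981), which encodes a matricellular YAP target, stretched differentiated cells were at 1080, 435, 453 and 448 CPM, with replicate 4 first. Non-stretched differentiated cells were at 166, 166, 171 and 180 CPM, and myoblasts went from 194, 192, 198 and 199 to 357, 347, 331 and 342 CPM. Cyr61 rose in both stages without overlap, by 1.82 in differentiated cells and 0.82 in myoblasts on the log2 scale (difference 1.01 ± 0.207, adjusted p = 0.0198). Without replicate 4 the difference was 0.57 (adjusted p = 0.00236), just under the limit of 0.58. For Fosb it was then 1.29.

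Immediate early genes are described as a group of 27 tested genes. Their median difference at 1 h was 0.43, and 25 of the 27 values were positive, against a median of 0.0044 and 51.7% positive values over all genes. Fosb, Myc and Btg2 were called (0.0704% of all genes), and Jun (0.39, adjusted p = 0.00578) and Fosl2 (0.33, adjusted p = 0.0198) passed the adjusted p-value alone, so that 5 of the 27 passed it (0.17% of all genes). Myc, a transcription factor of growth, rose by 1.37 in differentiated cells and had a log2 fold change of 0.38 in myoblasts (difference 0.98, adjusted p = 0.0327). Btg2, an antiproliferative gene, rose by 0.88 in differentiated cells (difference 0.78, adjusted p = 0.0479). The group did not move as one, since Egr1 rose by 1.33 in differentiated cells and by 1.4 in myoblasts (difference -0.064 ± 0.219). Fos rose by 2.76 and 2.16 (difference 0.60 ± 0.362, adjusted p = 0.895). Without replicate 4, the median of the group was 0.15, 20 of 27 values were positive, and Fosb alone of the group was called, with 4 genes past the adjusted p-value. What set replicate 4 apart was not tested.

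Errfi1 and Smad7, which restrain growth factor signaling, also had higher responses in differentiated cells at 1 h. Errfi1, whose promoter is shown above, rose by 1.12 in differentiated cells and had a log2 fold change of 0.11 in myoblasts (difference 1.01, adjusted p = 0.0327). Smad7, an inhibitor of TGF-β signaling, rose by 1.21 and 0.47 (difference 0.73, adjusted p = 0.0198). Without replicate 4, the differences of Errfi1, Smad7 and Btg2 were 0.54, 0.48 and 0.42, all under the limit of size with an adjusted p-value still under 0.05, while that of Myc was 0.60 (adjusted p = 0.0589). Among 22 YAP target genes, 2 were called at 1 h (Cyr61 and Gadd45b, with 0.0704% of all genes called), and the median difference of the list was -0.0049. Without replicate 4, 1 of the 22 was called. Ctgf had a difference of 1.45 that did not pass (adjusted p = 0.171).

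Gadd45b fell in myoblasts, and its rise in differentiated cells rested on replicate 4. Gadd45b (chromosome 10, 80930073 to 80932204, plus strand) encodes a stress sensor that acts on MAP kinase signaling. Differentiated cells had 30.8, 30.2, 32.6 and 34.1 CPM without stretching and 57.8, 35.7, 42.5 and 30.6 CPM with it, replicate 4 first. Myoblasts had 8.73, 9.42, 8.06 and 9.16 CPM without and 6.15, 5.58, 5.78 and 6.22 CPM with stretching. The myoblast groups were apart and the differentiated groups overlapped. It rose by 0.38 in differentiated cells (adjusted p = 0.00733) and fell by 0.58 in myoblasts (adjusted p = 0.000514), a difference of 0.96 ± 0.146 (adjusted p = 0.00119). Without replicate 4, the log2 fold change in differentiated cells was 0.18 and did not pass (adjusted p = 0.205), and the difference was 0.76. Within the differentiated experiments, the log2 ratio of stretched to non-stretched Gadd45b was 0.36 in B25 and -0.12 in B28, where replicate 9 was the only stretched library. Its relative Gadd45a had the opposite balance (difference -0.62 ± 0.128, adjusted p = 0.0215), with a rise of 0.46 in myoblasts and a log2 fold change of -0.16 in differentiated cells. Without replicate 4, the difference of Gadd45a was -0.52.

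Heyl and Myog fell in myoblasts at 1 h. Heyl encodes a transcriptional repressor downstream of Notch, and Myog encodes myogenin, a transcription factor that drives muscle differentiation. Heyl was at 0.730, 0.869, 1.79 and 1.94 CPM in non-stretched and at 0.635, 0.385, 0.373 and 0.648 CPM in stretched myoblasts at 1 h. Myog was at 0.935, 1.04, 1.84 and 2.43 CPM in non-stretched and at 0.389, 0.648, 0.597 and 0.956 CPM in stretched myoblasts. The Myog groups overlapped, those of Heyl did not, and replicates 9 and 10 of the non-stretched myoblasts were the higher ones for both. In differentiated cells Heyl was between 47.7 and 61.6 CPM and Myog between 758 and 962 CPM, with stretched and non-stretched libraries overlapping. The differences were 1.42 ± 0.269 for Heyl (adjusted p = 0.00943) and 1.25 ± 0.281 for Myog (adjusted p = 0.0444). The summed level of the 7 muscle genes in myoblasts at 1 h was 8.05 ± 2.93 CPM (SD, n = 4) without and 5.31 ± 0.443 CPM with stretching, and all 7 had a positive difference. Of these, Myog alone was called. At 3 h the sum in myoblasts was 9.61 ± 2.64 CPM without and 7.06 ± 0.325 CPM with stretching. All 7 differences were positive at 3 h too (median 0.54), where edgeR called 0 and DESeq2 called 1. The part of the muscle genes in these results was not tested, and fewer cells of a kind cannot be told apart from less RNA per cell.

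**Figure D2:**
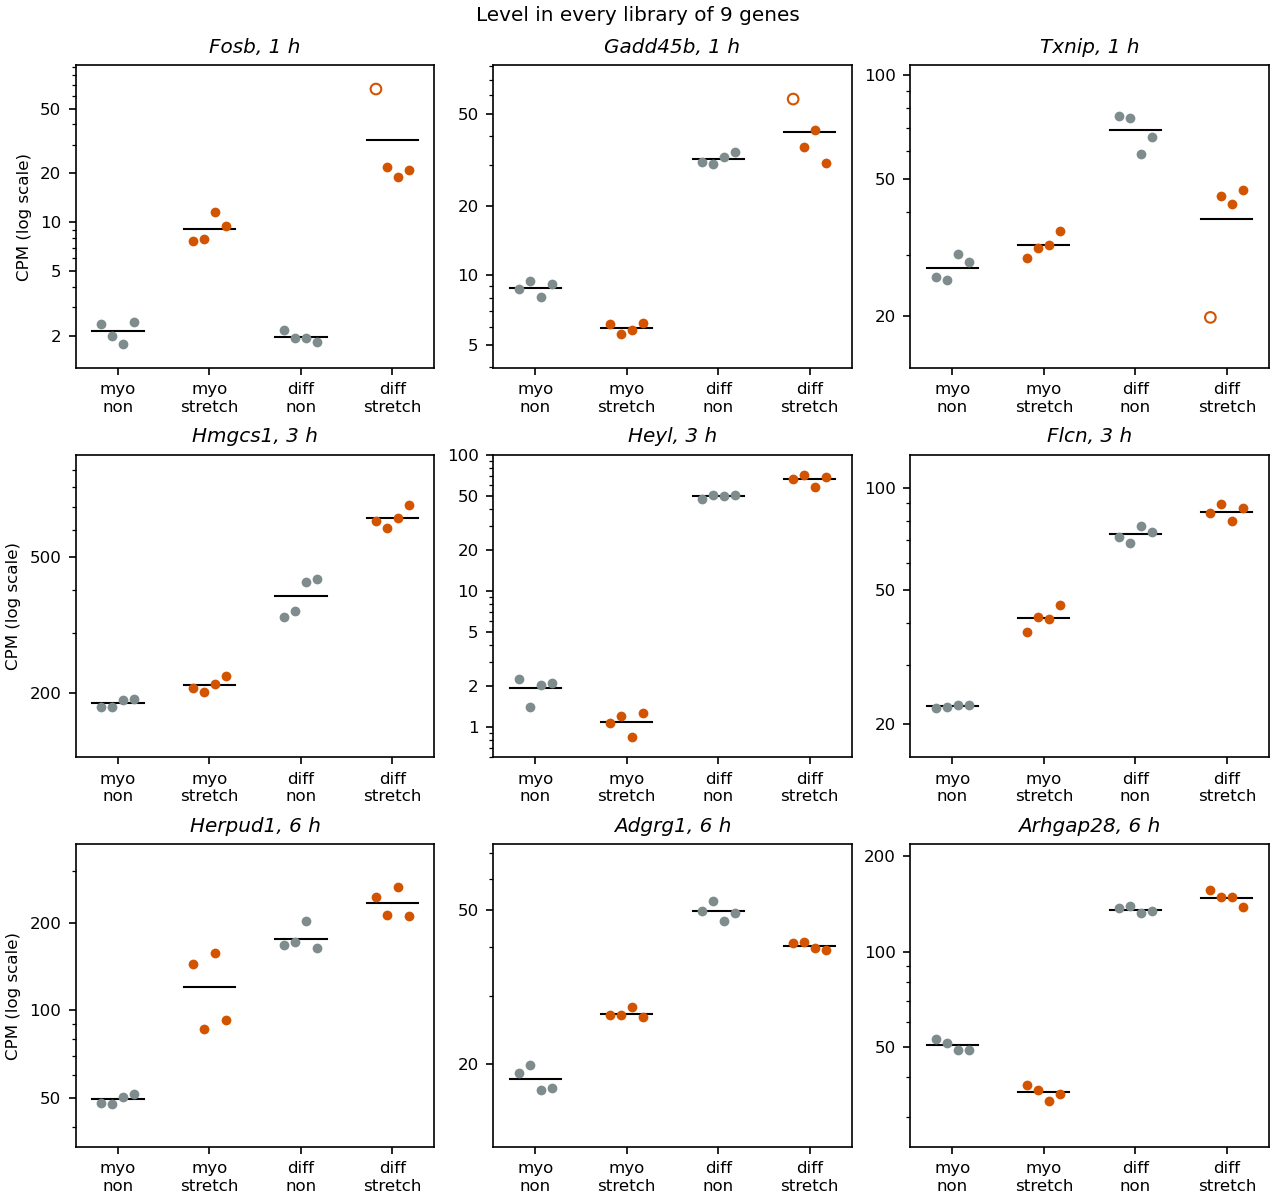
Each point is a library, on a log axis of CPM, for 9 stage-dependent genes at the time of their call, with non-stretched and stretched groups of both stages side by side. Short lines are group means and the hollow point is replicate 4, which is highest for Fosb (65.9 CPM) and lowest for Txnip (19.8 CPM) in its group.

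Txnip was the one gene called at all 3 times. At 1 h, Txnip (chromosome 3, 96557957 to 96561883, plus strand) went from 76.2, 74.9, 58.9 and 66.1 CPM to 19.8, 44.6, 42.2 and 46.5 CPM in differentiated cells, replicate 4 first. At 3 h it went from 60.4, 59.6, 50.6 and 51.2 CPM to 31.8, 31.2, 27.3 and 21.3 CPM, and at 6 h from 67.8, 64.6, 54.2 and 62.7 CPM to 32.6, 35.3, 36.0 and 37.9 CPM. Stretched differentiated libraries thus lay below the non-stretched ones at each time. In myoblasts the groups overlapped at each time, with 25.5 to 30.2 CPM without and 29.5 to 35.3 CPM with stretching at 1 h. The myoblast levels were 23.1 to 28.1 and 22.1 to 24.4 CPM at 3 h, and 15.9 to 19.5 and 14.9 to 17.7 CPM at 6 h. The differences were -1.07 ± 0.192 (adjusted p = 0.0074), -0.84 ± 0.196 (adjusted p = 0.0207) and -0.69 ± 0.199 (adjusted p = 0.0319) in the order of time. Without replicate 4, that at 1 h was -0.85.

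Heyl was called at 1 h and 3 h, Dapk2 at 1 h and 6 h, and Ak4 at 3 h and 6 h. At 3 h, Heyl rose in differentiated cells from 47.6, 50.6, 49.5 and 50.5 to 66.7, 71.6, 58.1 and 68.8 CPM. In myoblasts it fell from 2.23, 1.39, 2.03 and 2.10 to 1.06, 1.20, 0.834 and 1.27 CPM. No groups overlapped, and the difference was 1.24 ± 0.222 (adjusted p = 0.00157). Dapk2, a death-associated protein kinase, had differences of 0.59 and 0.58 with a fall in myoblasts at both times.

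At 3 h, most genes of sterol synthesis rose in differentiated cells, whereas few passed the test in myoblasts. All 25 tested genes of the list had a positive difference, with a median of 0.43 against -0.0042 over all genes, and 15 passed the adjusted p-value (1.01% of all genes). The 5 called genes (0.188% of all genes were called) included Stard4, Lss, Acat2 and Hmgcs1. In differentiated cells, 21 of the 25 genes rose by the adjusted p-value (9.42% of all genes did), with a median log2 fold change of 0.54. In myoblasts, 4 rose (10.7% of all genes) and 1 fell (9.28%), with a median of 0.073. Hmgcs1, Acat2 and Insig1 are among the genes that the study chose for quantitative PCR, so that they are not independent evidence of the direction.

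Hmgcs1 (chromosome 13, 119690379 to 119708260), whose promoter is shown above, catalyses an early step of the mevalonate pathway. It went from 333, 348, 421 and 429 to 637, 609, 648 and 711 CPM in differentiated cells, in the order of replicates 7 to 10. In myoblasts it went from 182, 181, 190 and 192 to 207, 201, 212 and 223 CPM (difference 0.59 ± 0.113, adjusted p = 0.00277). No groups overlapped within a stage, and the change was the larger one in differentiated cells.

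Stard4 encodes a protein that moves cholesterol between membranes. It was at 53.6, 59.8, 66.8 and 69.7 CPM in non-stretched and at 102, 92.3, 105 and 116 CPM in stretched differentiated cells. Myoblasts had 67.7, 67.2, 71.3 and 71.9 CPM without and 71.6, 67.3, 70.0 and 72.6 CPM with stretching, with the groups overlapping. The difference was 0.71 ± 0.111 (adjusted p = 0.000195). Lss, which makes lanosterol, and Acat2, a thiolase, had differences of 0.60 each, the second at an adjusted p-value of 0.05 after rounding, with 43.7% of the 31-base stretches of Acat2 shared with other genes. Msmo1 (0.58, adjusted p = 0.00123) and Hsd17b7 (0.48, adjusted p = 0.00016) passed the adjusted p-value but not the limit of size. Insig1, which holds SREBP in the endoplasmic reticulum, rose in both stages (1.02 and 0.47). The difference of Srebf2, the gene of SREBP2 itself, was 0.061 ± 0.0571. Leaving out single libraries ended the call of Hmgcs1 in 7 of 16 fits and that of Acat2 in 14, and ended that of Stard4 in none.

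**Figure D3:**
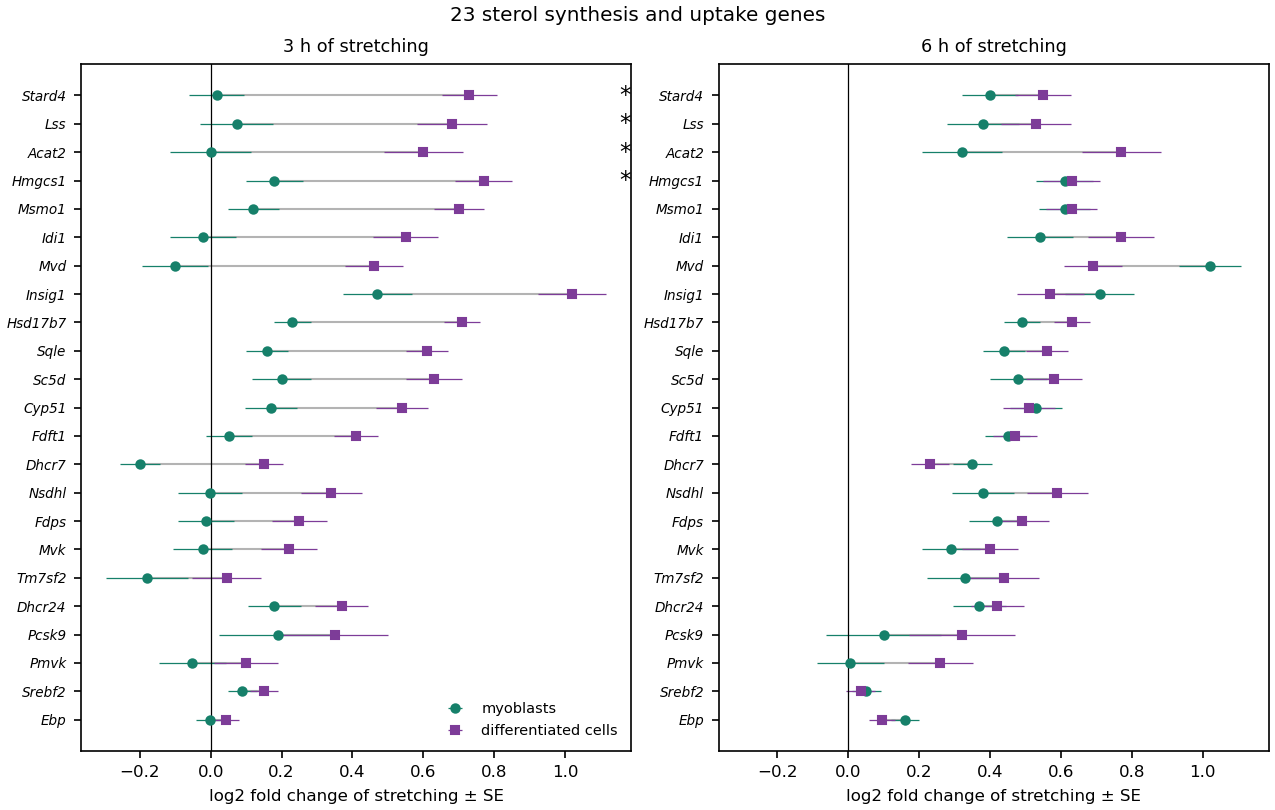
For 23 of the 25 sterol genes, the log2 fold change with stretching ± SE is plotted in myoblasts and differentiated cells at 3 h (left) and 6 h (right), joined by a line, with an asterisk where the difference was called. At 3 h the differentiated value is the higher one for all 23 genes plotted, and at 6 h for 17, where the medians of the whole list were 0.51 in differentiated cells and 0.40 in myoblasts.

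At 6 h, sterol genes rose in both stages. By the adjusted p-value, 22 of 25 rose in differentiated cells (13.2% of all genes) and 22 in myoblasts (10.1%). The median difference was 0.10, and edgeR called 0 of the 25, with 0 past the adjusted p-value and 2 at an unadjusted p-value under 0.05, while DESeq2 called 0 with 1 past its adjusted p-value. Hmgcs1 rose by 0.63 and 0.61 (difference 0.026 ± 0.113). Whether the differences at 3 h and 6 h themselves differed was not tested.

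The remaining genes of 3 h were mostly higher in differentiated cells. Mfsd2a, a transporter of lysophospholipids, rose from 9.06, 8.45, 11.2 and 11.6 to 16.6, 16.6, 18.3 and 18.9 CPM in differentiated cells. In myoblasts it was at 8.51, 8.28, 7.76 and 8.24 CPM without and at 7.63, 6.94, 7.23 and 6.72 CPM with stretching (difference 1.00 ± 0.164, adjusted p = 0.000383). The stretched libraries were all higher in differentiated cells and all lower in myoblasts, where the log2 fold change of -0.20 did not pass (adjusted p = 0.262). Other positive differences were those of the Wnt ligand Wnt7b (1.06, adjusted p = 0.0075), Apobr, a receptor for lipoproteins (0.84), the cell cycle regulator Rgcc (0.75) and the stress kinase Plk3 (0.64). Cacna1b, a calcium channel subunit (0.77), and Ankrd37, a target of the hypoxia factor (0.75), rose in differentiated cells and fell in myoblasts. Ak4, a mitochondrial adenylate kinase that is also induced by hypoxia, had a difference of 0.74 with a fall in myoblasts. Other genes hold 11.6% of the 31-base stretches of Ak4.

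Flcn had the smallest adjusted p-value of the genes called at 3 h and a larger rise in myoblasts. Flcn (chromosome 11, 59791408 to 59810016, minus strand) encodes folliculin, a regulator of nutrient signaling at the lysosome. In myoblasts it went from 22.4, 22.5, 22.8 and 22.9 CPM to 37.4, 41.5, 41.0 and 45.1 CPM. In differentiated cells it went from 71.5, 68.9, 76.9 and 73.9 CPM to 84.2, 89.4, 79.7 and 86.9 CPM. No groups overlapped within a stage. The log2 fold change was 0.86 in myoblasts and 0.22 in differentiated cells, a difference of -0.64 ± 0.0813 (adjusted p = 1.54e-05). Smad6, an inhibitor of BMP signaling, fell by 0.41 in differentiated cells (difference -0.66, adjusted p = 0.0262).

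At 6 h, 4 genes of the endoplasmic reticulum rose more in myoblasts. Of 21 tested genes for protein folding and the unfolded protein response, 20 had a negative difference (55.5% of all genes had a positive one), with a median of -0.30 against 0.023 over all genes. Both stages responded, with 17 genes rising by the adjusted p-value in differentiated cells (13.2% of all genes) and 19 in myoblasts (10.1%), and with medians of 0.40 and 0.58. Herpud1 and Syvn1 were called (0.669% of all genes), and Dnajb9 (-0.47, adjusted p = 0.0275) and Sel1l (-0.42, adjusted p = 0.0146) passed the adjusted p-value alone, so that 4 of the 21 passed it (5.98% of all genes). These 4 genes serve the degradation of misfolded proteins of the endoplasmic reticulum. The folding chaperones had negative values that did not pass, such as Hspa5 (-0.43, adjusted p = 0.164) and Sdf2l1 (-0.63, adjusted p = 0.178). At 1 h and 3 h the medians of the list were 0.0056 and 0.023.

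Herpud1 (chromosome 8, 94386438 to 94395377, plus strand) was at 48.4, 47.8, 50.4 and 51.9 CPM in non-stretched and at 144, 86.1, 157 and 92.8 CPM in stretched myoblasts. In differentiated cells it was at 168, 171, 202 and 164 CPM without and at 244, 212, 265 and 211 CPM with stretching. It rose without overlap in both stages, by 1.27 in myoblasts and 0.40 in differentiated cells (difference -0.87 ± 0.149, adjusted p = 0.000357). Syvn1 (chromosome 19, 6046576 to 6053712) went from 51.6, 54.4, 47.8 and 49.0 to 124, 77.5, 133 and 75.9 CPM in myoblasts and from 69.3, 71.9, 74.3 and 65.4 to 101, 81.0, 110 and 78.4 CPM in differentiated cells. It also rose in both stages without overlap (difference -0.62 ± 0.146, adjusted p = 0.00803). In both genes and both stages, stretched replicates 7 and 9 were higher than 8 and 10. The non-stretched libraries did not have this order, and its cause was not tested.

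**Figure D4:**
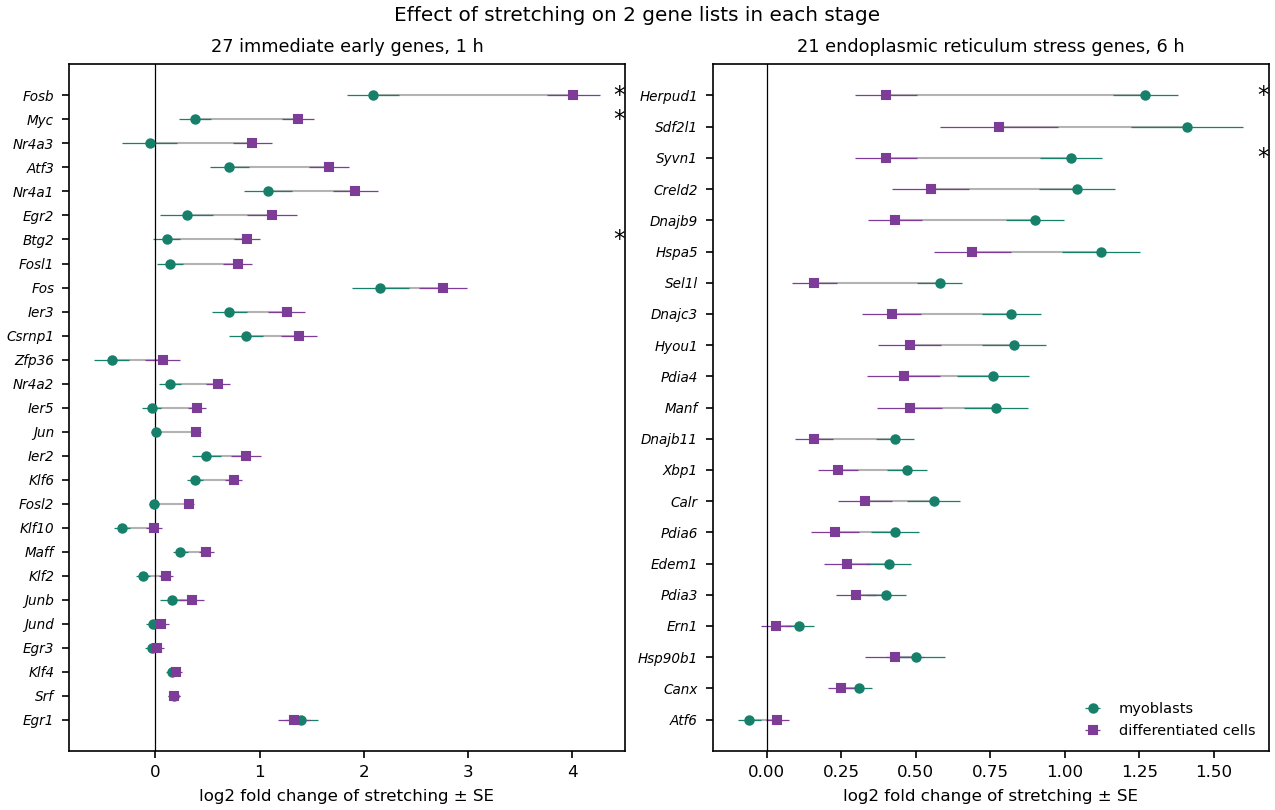
The log2 fold change with stretching ± SE in myoblasts and differentiated cells is plotted for 27 immediate early genes at 1 h (left) and 21 genes of the endoplasmic reticulum at 6 h (right), with an asterisk where the difference was called. The differentiated value is the higher one for 25 of 27 early genes and the lower one for 20 of 21 genes of the endoplasmic reticulum.

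Plin4, Mylk2 and Xirp1 also rose more in myoblasts at 6 h. Plin4 (chromosome 17, 56100591 to 56109803, minus strand), which coats lipid droplets, went from 7.61, 7.90, 6.06 and 7.27 to 21.6, 18.4, 23.5 and 19.9 CPM in myoblasts. In differentiated cells it went from 5.75, 5.93, 4.61 and 6.41 to 7.48, 7.83, 7.92 and 6.98 CPM (difference -1.12 ± 0.224, adjusted p = 0.00189). The groups were apart in both stages, although the change in differentiated cells did not pass (adjusted p = 0.0586). Mylk2, the myosin light chain kinase of skeletal muscle, rose by 1.05 in myoblasts, from 3.58, 3.93, 4.41 and 4.68 to 7.75, 6.65, 10.2 and 9.73 CPM. In differentiated cells its groups overlapped, at 19 to 27 CPM without and 21 to 23.9 CPM with stretching (difference -0.95 ± 0.214, adjusted p = 0.00564). Xirp1, an actin-binding protein of muscle, rose by 0.72 in myoblasts (difference -0.64, adjusted p = 0.00393) and was the one called gene of 38 sarcomere genes (0.669% of all genes were called), whose median difference was -0.085. The list with the genes of lipid droplets had 9 positive and 11 negative values and a median of -0.076. The summed level of the 7 muscle genes in myoblasts was 5.82 ± 0.721 CPM without and 5.57 ± 0.696 CPM with stretching at 6 h.

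Ndrg4 had the smallest adjusted p-value of the called genes. It was at 123, 129, 120 and 135 CPM in non-stretched and at 202, 194, 219 and 189 CPM in stretched myoblasts. Differentiated cells had 456, 473, 492 and 477 CPM without and 504, 488, 505 and 477 CPM with stretching. The myoblast groups were apart and the differentiated ones overlapped (difference -0.61 ± 0.0612, adjusted p = 1.19e-08). The call ended without stretched myoblast replicate 9, as did those of Xirp1 and of Mmp15, a membrane-bound metalloproteinase (difference -0.62, adjusted p = 0.000182).

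Responses of opposite direction were found for 15 genes at 6 h. Adgrg1 (chromosome 8, 94974751 to 95014217, plus strand) encodes an adhesion receptor coupled to G proteins. It fell in differentiated cells, from 49.6, 52.8, 46.9 and 49.2 to 41.0, 41.4, 39.9 and 39.3 CPM. It rose in myoblasts, from 19, 19.9, 17.1 and 17.3 to 26.7, 26.8, 28 and 26.4 CPM. Neither stage showed overlap, and the difference was -0.86 ± 0.0966 (adjusted p = 1.82e-07). Cd28, known as a costimulatory receptor of T cells, had the same pattern at a lower level. It went from 10.6, 10.9, 9.09 and 9.95 to 7, 7.92, 7.28 and 7.73 CPM in differentiated cells, and from 2.74, 3.01, 3.05 and 2.76 to 4.26, 4.26, 5.4 and 6.32 CPM in myoblasts. Its groups were apart in both stages (difference -1.24 ± 0.168, adjusted p = 9.86e-06).

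Wisp2 had the largest difference among the genes shown here by library. Wisp2 (chromosome 2, 163820861 to 163833146, plus strand) encodes a matricellular protein of the same family as Cyr61. In differentiated cells it fell from 6.02, 6.66, 4.50 and 5.34 to 3.48, 4.56, 2.80 and 3.01 CPM, with overlapping groups. In myoblasts it rose from 0.140, 0.194, 0.153 and 0.184 to 0.579, 0.684, 0.419 and 0.367 CPM, with groups apart. The difference was -2.31 ± 0.332 (adjusted p = 2.73e-05). Other genes with a fall in differentiated cells and a rise in myoblasts were Spry1, an inhibitor of receptor tyrosine kinase signaling (-0.74, adjusted p = 0.0157), and Xdh, which encodes xanthine dehydrogenase (-1.03, 11.1% of its 31-base stretches shared). Id3, an inhibitor of myogenic transcription factors, fell in differentiated cells (difference -0.86, adjusted p = 0.00979), as did the serine protease gene Htra3 (-1.11). The chemokine gene Ccl7 rose in myoblasts (-0.68), as did Fads6, a gene of the fatty acid desaturase family (-1.0).

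Positive differences were fewer among the genes called at 6 h and came from both kinds of response. Arhgap28 (chromosome 17, 67842713 to 68004120, minus strand) encodes a protein that switches off small GTPases. In myoblasts it fell from 52.8, 51.3, 48.9 and 49.0 to 37.8, 36.4, 33.8 and 35.4 CPM, while in differentiated cells it went from 137, 139, 132 and 134 to 156, 149, 149 and 138 CPM. The groups were apart in myoblasts and overlapped in differentiated cells, where the rise of 0.13 still passed (adjusted p = 0.0347). The difference was 0.62 ± 0.066 (adjusted p = 3.92e-08). Hmga2, a chromatin protein of growing cells, rose in differentiated cells from 67.6, 63.7, 69.3 and 66.4 to 88.4, 93.8, 104 and 113 CPM. Myoblasts held more of it, at 639 to 723 CPM without and 560 to 737 CPM with stretching, and the groups overlapped (difference 0.67 ± 0.0956, adjusted p = 2.34e-05).

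Ak4 rose in both stages at 6 h, from 3.04, 2.91, 3.05 and 2.31 to 6.56, 6.98, 6.42 and 5.71 CPM in differentiated cells and from 10, 10.5, 10.9 and 10.3 to 13.4, 13, 13.3 and 12.2 CPM in myoblasts. No groups overlapped, and the log2 fold change was 1.18 and 0.31 (difference 0.87 ± 0.144, adjusted p = 0.000194). Fam167a fell in both stages and more so in myoblasts on the log2 scale, by 0.28 and 0.99. Its levels were 152, 152, 151 and 150 CPM in non-stretched and 113, 126, 121 and 139 CPM in stretched differentiated cells, and 8.77, 8.92, 7.92 and 7.86 against 4.4, 4.51, 3.88 and 4.04 CPM in myoblasts. In CPM the fall was therefore the larger one in differentiated cells, by 22.4 CPM more. The serotonin receptor gene Htr1b (0.73), the Wnt modulator Dkk2 (0.70) and the lipoprotein receptor gene Lrp8 (0.59) also had positive differences.

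The scale matters where the level differs between stages. Among the called genes, the change in CPM differed between the stages with the sign opposite to that of the log2 difference for 0 genes of 1 h, 1 of 3 h (Il12a) and 13 of 6 h. These 13 include Fam167a, Xirp1, Htr1b, Lrp8, Dapk2 and Rbm24. Genes with at least 1 CPM in both stages made up 11, 21 and 50 of the 12, 32 and 114 calls, and at 6 h 50 calls had a mean under 100 counts.

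A few splicing regulators had a higher response in differentiated cells at 6 h. Of 20 such genes outside the SR family, 6 passed the adjusted p-value (5.98% of all genes did) and 18 had a positive difference (55.5% of all genes), with a median of 0.19 against 0.023 over all genes. The 6 genes were Hnrnpf, Hnrnph1, Hnrnpk, Hnrnpm, Hnrnpu and Tra2a, of which Tra2a had the largest difference (0.38, adjusted p = 0.00977). For the SR proteins and their kinases, 16 of 17 values were positive, with a median of 0.14, and 1 of the 17 passed (Srsf1, 0.25), a share near that of all genes. edgeR called 0 genes of both lists, with 14 and 7 at an unadjusted p-value under 0.05, and DESeq2 called 0 with 9 and 2 past its adjusted p-value. With the other scalings tried, 18 and 15 values were positive.

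Other groups held few or no stage-dependent genes. Of 22 ATF4 targets at 1 h, 21 had a negative difference with a median of -0.20 (-0.15 without replicate 4). edgeR called 0 of them, with 10 at an unadjusted p-value under 0.05, and DESeq2 called 0 with 1 past its adjusted p-value. Ppp1r15a, which reverses the block of translation, rose by 0.69 in differentiated cells and by 0.96 in myoblasts (difference -0.27 ± 0.0877, adjusted p = 0.393). Of 310 numbered Zfp genes, which encode zinc finger proteins, edgeR and DESeq2 called 0 at each time. At an unadjusted p-value under 0.05 there were 39, 22 and 42 of them, in the order of time. Their median log2 fold changes at 1 h were -0.15 in differentiated cells and -0.20 in myoblasts. These values do not show that the stages respond alike.

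The number of calls depended on single libraries. At 1 h it was 13 without replicate 4, but only 6 of the 12 genes were among them (Fosb, Gadd45b, Heyl, Myog, Dapk2 and Txnip). It was 5 without non-stretched myoblast replicate 9, stretched myoblast replicate 9 or non-stretched differentiated replicate 8, 6 without non-stretched myoblast replicate 10, 7 without stretched myoblast replicate 8 and 27 without stretched differentiated replicate 9. With the 16 libraries of 1 h fitted alone, edgeR called 0 genes, with 705 at an unadjusted p-value under 0.05, while DESeq2 with all 48 libraries called 26. At 3 h the lowest counts were 15 without non-stretched differentiated replicate 7, 18 and 19 without stretched myoblast replicates 8 and 7, 19 without non-stretched differentiated replicate 8, 20 without stretched myoblast replicate 9, and 21 without non-stretched myoblast replicate 10 or stretched differentiated replicate 10. At 6 h they were 53 without stretched and 60 without non-stretched myoblast replicate 9. Called in every such fit were 3 of the 12 genes at 1 h (Fosb, Gadd45b and Txnip), 13 of 32 at 3 h and 37 of 114 at 6 h.

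**Figure D5:**
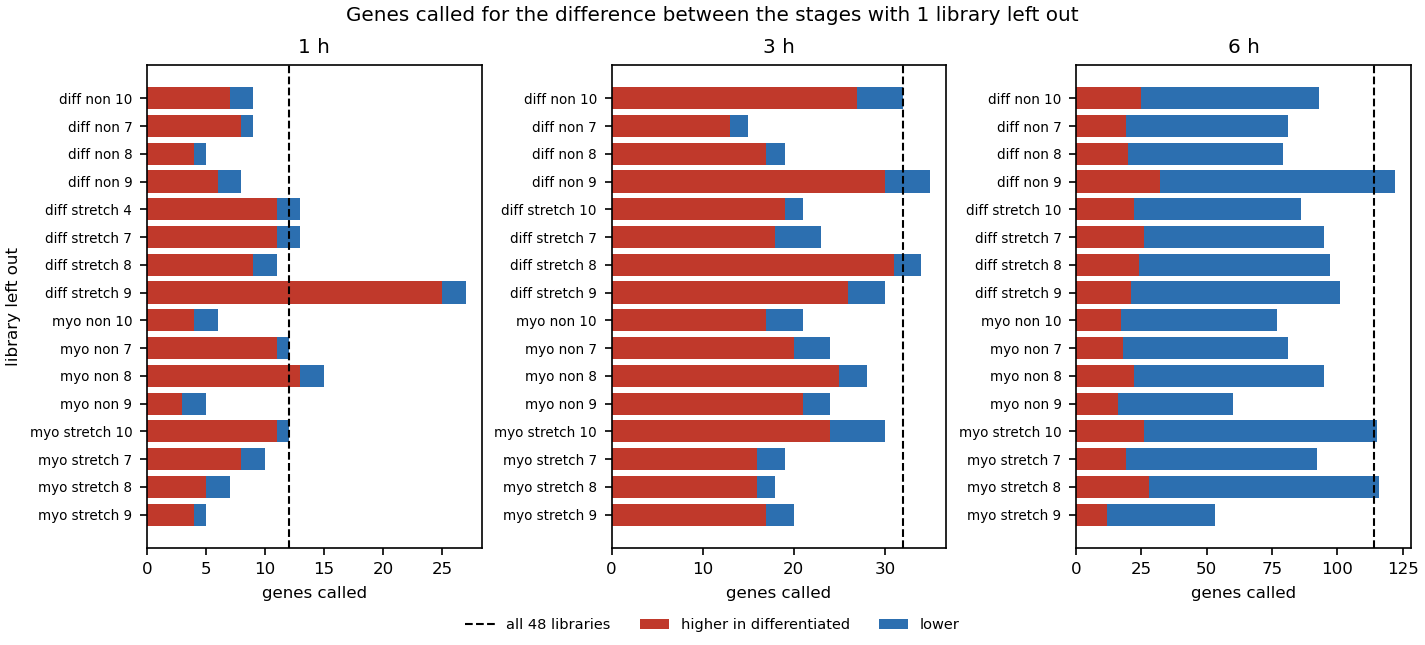
The number of stage-dependent genes is plotted as a bar for each fit that leaves out a single library of that time (red, higher in differentiated cells; blue, lower), with a dashed line at the number from all libraries (12, 32 and 114). The counts range from 5 to 27 at 1 h, from 15 to 35 at 3 h and from 53 to 122 at 6 h.

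Within experiments, the stretch effect of each differentiated experiment was set against that of each myoblast experiment as a ratio of mean CPM. For all 12, 32 and 114 called genes, the 4 pairs of experiments had the sign of the difference, which the choice of the genes by the call favours. At 1 h, replicate 9 was the only stretched library of B28, and B17, without a non-stretched library, was left out. Fosb had log2 ratios of 3.30 and 3.46 in the differentiated experiments and of 1.83 and 2.31 in those of myoblasts. Herpud1 had 0.43 and 0.38 against 1.26 and 1.29 at 6 h. For Heyl at 1 h, the myoblast experiments differed, with -0.64 in B27 and -1.85 in B31. With the experiment as a covariate, 20, 55 and 172 genes were called, among them 7 of the 12, 32 of the 32 and 113 of the 114. The calls of Btg2, Dapk2, Errfi1, Gadd45a and Smad7 at 1 h and of Dact2 at 6 h ended. Replicate 4, the only library of B17, had its own term in this fit. It therefore did not enter the difference at 1 h, as when it was left out.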

How the data were processed

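RNA-seq libraries (stranded mRNA, one flow cell) were aligned by the authors to mm10 with STAR and quantified with Salmon. The authors deposited estimated counts per gene symbol and library without normalization, in a table for each stage. Both tables hold the same 47480 symbols and were joined, with 0 columns left out. The labels give the molecule as nuclear RNA. The estimated counts were rounded to whole numbers, filtered with filterByExpr, scaled with TMM and fitted in one model of 12 groups (48 libraries, 48447318 to 77080730 counts) in edgeR 4.0.16 (R 4.3.3), with quasi-likelihood F tests of the contrasts. CPM uses TMM-scaled library sizes. A gene was called at an adjusted p-value under 0.05 and a log2 difference of at least 0.58.

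Genes named are drawn from the 8 highest and 8 lowest differences per time among genes averaging 100 counts or more, and 1 CPM or more in each stage. They are also drawn from called list members, genes called at more than one time, genes with opposite responses and genes the study names. Thsd4 (difference 1) and Ccdc73 (0.72) at 6 h met this rule and are named only here. List members that passed the adjusted p-value alone or not at all, Il12a, Rbm24, Plk3 and others outside this rule were added after their values were seen. Members and lists were chosen with earlier results of these data known. Gene positions are those of GENCODE vM21 on mm10, where Cyr61 is Ccn1 and Wisp2 is Ccn5. Genes sharing sequence have counts that depend on how Salmon divides reads. On simulated data for 6 h in which 200 genes averaging at least 1 CPM differed by 1 (log2), 95.5% were called among 16942 genes, with 10 false calls. At 1 h and 3 h, where no gene was changed, there were 2 and 5 false calls. The simulated spread followed the level of a gene, without effects of experiment, so that these rates may not hold for the real libraries. One library whose experiment code differed between label and table header (stretched myoblasts, 1 h, replicate 9) was placed in B31.

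Alternatives were RLE scaling, TMM within each stage, DESeq2 1.42.0, other filters, a replicate block, the experiment as a covariate, 16 libraries per fit, glmTreat, no limit on size and each library left out. Splicing, western blots and quantitative PCR were not analysed here. Some genes of the sterol list entered its counts and medians but are not reported here.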

Additional observations from a re-analysis of the deposited data

Results flagged for a closer look

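The responses of both stages were compared by the interaction itself, which passed for 12 genes at 1 h, 32 at 3 h, 114 at 6 h and 801 in the joint test of the 3 times. Genes with responses of opposite sign that each passed an adjusted p-value under 0.05 were Gadd45b at 1 h (difference 0.96; without replicate 4 its rise in differentiated cells was 0.18 and did not pass, adjusted p = 0.205), and Ankrd37 (0.75), Cacna1b (0.77) and Heyl (1.24) at 3 h. At 6 h, 13 such genes fell in differentiated cells and rose in myoblasts. Those with at least 1 CPM in both stages were Adgrg1 (-0.86), Cd28 (-1.24), Pde2a (-0.66), Rab29 (-0.76), Spry1 (-0.74), Xaf1 (-0.79) and Xdh (-1.03). Those with less in a stage were Ampd1 (-2.73), Kctd14 (-1.97), Prss46 (-3.89), Slc5a5 (-1.32), Tmem229b (-1.34) and Wisp2 (-2.31). For Prss46, Ampd1 and Kctd14 these sizes rest on 1, 3 and 12 counts over the 4 non-stretched and 10, 16 and 28 over the 4 stretched myoblast libraries, and they depend on the prior count of the fit. Their ratios of stretched to non-stretched myoblasts were 9.98 (95% exact Poisson interval 1.42 to 433), 5.32 (1.52 to 28.5) and 2.33 (1.15 to 5.03), intervals that cover counting error only. Arhgap28 (0.62) and Serpinb2 (1.56) rose in differentiated cells and fell in myoblasts. Serpinb2 averaged only 0.128 CPM without and 0.336 CPM with stretching in differentiated cells, so that its difference rests on few counts there. Other genes hold 11.2% of its 31-base stretches. Of the 31-base stretches of Pde2a, 63.8% occur in other genes, so that its value is uncertain.

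In 5 of 144 groups of 4 libraries, a library lay far from the other 3 by Dixon's criterion, which chance alone gives for about 1 in 20 groups. In 4 of the 5 it was replicate 4 of the differentiated cells stretched for 1 h, with 65.9 CPM of Fosb, 1080 CPM of Cyr61, 19.8 CPM of Txnip and a summed level of markers of undifferentiated cells of 632 CPM. The other was Mylk2 in non-stretched differentiated replicate 10 at 6 h, at 27 CPM.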

How the results depend on the processing

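No called difference changed sign in the alternatives where it was tested (4117 values of 158 gene and time pairs), which the choice of these genes by the call favours. Of these values, 1172 were no longer called. The counts of 12, 32, 114 and 801 genes (1 h, 3 h, 6 h and the joint test) became 20, 55, 172 and 1897 with the experiment as a covariate. With the replicate number as a block they were 19, 50, 166 and 1722, but the numbers were not taken to pair the libraries, since the deviations of only 10 of 23 pairs of same-numbered libraries correlated above 0.1 (-0.196 to 0.521). The block ended the calls of Btg2, Dapk2, Errfi1, Gadd45a and Smad7 at 1 h and of Dact2 and 2810408I11Rik at 6 h. Replicate 4 had its own term in this fit and in that with the experiment. Both fits therefore took it out of the difference at 1 h. With the 16 libraries of a time fitted alone, 0 genes were called at 1 h (705 at an unadjusted p-value under 0.05), 41 at 3 h and 104 at 6 h, and the joint test could not be fitted. A test of whether the difference exceeds 0.58 (glmTreat) left 0, 0 and 1 (Wisp2), with 152 and 134 genes at an unadjusted p-value under 0.05 at 1 h and 3 h. DESeq2 called 26 at 1 h, and without the limit on size 29, 172 and 1020 genes passed. Without a filter on low counts there were 69 at 6 h and 501 in the joint test, and with at least 1 CPM in both stages 59 at 6 h. Omission of each library in turn gave 5 to 27, 15 to 35 and 53 to 122. The cause of these changes was not tested. RLE scaling, TMM within each stage and a minimum of 10 counts kept all counts within 1.5 times. Depth limits genes with few counts: 8 calls at 3 h and 50 at 6 h had a mean under 100.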

Other observations

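Of 31 cell cycle genes, 28 had a positive difference at 6 h (55.5% of all genes), with a median of 0.14. The adjusted p-value was passed by 1 gene in each direction (Pcna 0.25, Ccnd3 -0.29), a share near the 5.98% of all genes. Of 18 genes of glycolysis and hypoxia, Ak4 and Ankrd37 were called at 3 h (0.188% of all genes) and Ak4 at 6 h (0.669%). Without replicate 4, 7 further genes were called at 1 h, among them Spon2 (1.09), Ogn (0.72), Vsir, Ano5, Cd200, Maf and Apol8. Sequence of 31 bases or more was shared with other genes over more than 10% of the length for 20 of the 150 called genes with a position, and over more than 50% for 7, Phospho1 (87.1%) and Pde2a (63.8%) among them.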
